A study of Mus musculus with 24 samples.

Results

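Whole-kidney RNA of TgUmodC147W females was compared between 2 months (4 mice) and 1 month of age (4 mice), which are 8 of the 24 arrays of the series. All mice were of the FVB strain and each gave 1 array of the Illumina MouseWG-6 v2.0 design. The TgUmodC147W mice carry a transgene for uromodulin with a cysteine-to-tryptophan change and an HA tag, driven by a fragment of the mouse Umod promoter. TgUmodwt females of 2 months (4 mice) and 1 month (4 mice) carry the same construct with wild-type uromodulin and are set beside the mutants, so both genotypes express a transgene on top of their own Umod. The other 8 arrays, of TgUmodC147W and TgUmodwt males of 1 month (4 mice each), served to choose gene lists and to read sex markers. They were also part of the normalization and of 1 alternative fit over all 24 arrays. Whole kidney was used, so fewer cells of a type and less RNA per cell cannot be told apart in any result below.

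Uromodulin is made by the thick ascending limb of the loop of Henle, folds in the endoplasmic reticulum (ER) and is shed into urine. Its mutation in people causes autosomal dominant tubulointerstitial kidney disease, in which misfolded protein stays in the ER. Between weaning and young adulthood the mouse kidney finishes its growth: cells leave the cycle, matrix synthesis slows, and the proximal tubule gains transporters and metabolic enzymes, several of which differ between the sexes.

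Values are log2 signals after background correction and quantile normalization, on a scale where 16.02 was the highest signal on any array and 6.46 to 6.51 was, on average, the lowest signal that counted as detected on the mutant arrays. Differences are 2 months minus 1 month on that scale, and each gene is read by its brightest expressed probe. Umod itself measured 15.91, 15.95, 15.94 and 15.87 in mutants of 2 months, against 15.93, 15.93, 15.89 and 15.89 in mutants of 1 month, a difference of 0.01 (SE 0.08, limma, adjusted p = 0.965), and −0.39 with arrays scaled to a common median (adjusted p = 0.0812). The probe does not tell the transgene from the mouse's own gene, and it lies so near the top of the scale that a change could be compressed. Of 15 expressed marker genes of the thick ascending limb, only Kcnj16, a potassium channel subunit, passed the test, with a difference of 0.42 (adjusted p = 0.0234), which was lost without replicate 2 of 1 month (adjusted p = 0.0685).

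One of the arrays went against its label. Replicate 2 of the mutants of 1 month had all Xist probes at background, by one of them 4.80 against 11.65 to 12.74 on the other mutant female arrays. Xist is the RNA that coats the inactive X chromosome of females. The Y-linked gene Kdm5d read 4.85 on that array by the probe that gave 6.45 to 7.50 in males, and so did not mark it as male. Of 4 X-linked genes that escape inactivation, Kdm6a measured 10.84 and Eif2s3x 10.58 on this array, against 11.16 to 11.53 and 10.97 to 11.49 on the other mutant female arrays, and 10.55 to 11.00 and 10.37 to 10.85 in males. Kdm5c at 7.08 and Ddx3x at 9.62 were not low on this array. The array was kept, and list counts that change without it are given both ways. Raw median intensities were 139.7 to 156.6 at 2 months and 122.8 to 127.9 at 1 month in mutants, so that age and array processing cannot be told apart.

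The main axis of the 8 mutant arrays was age. The first principal component held 53.4% of the variance and placed the arrays of 2 months at 23.9 to 30.2 and those of 1 month at −33.8 to −17.3, with replicate 4 of 1 month nearest to the older mice. Among 10008 expressed genes (18689 probes, of which 3086 have no name here), 772 genes were higher and 820 lower at 2 months at an adjusted p under 0.05 (limma). Of these, 130 and 142 changed by more than 2-fold. Without replicate 2 of 1 month, 524 were higher and 517 lower, and without replicate 1 of 2 months 493 were higher and 526 lower. Scaling all arrays to a common median, in place of quantile normalization, gave 594 higher and 1021 lower, so the share of higher genes was 36.8% in place of 48.5%. In TgUmodwt females 195 of 9752 genes were higher and 216 lower at 2 months. The difference between the genotypes in their age change was tested on 16 arrays and passed for 95 genes in the positive and 70 in the negative direction.

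Counted by the brightest probe alone, as in all lists below, 6.18% of the 10008 genes were higher and 6.98% lower at 2 months in mutants, and the 2 ages did not overlap for 20.7%. By the same count 0.819% of genes had a positive and 0.51% a negative difference between genotypes. These shares are the background for each list.

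Cell division genes fell together at 2 months. Of 25 expressed genes of mitosis and the cell cycle, 21 fell and none rose in mutants, with a median difference of −1.11 against −0.02 over all genes, and without replicate 2 of 1 month 19 fell. Of 25 expressed genes of DNA replication, 23 fell and none rose, also with a median of −1.11, and 21 fell without that array. Top2a, the topoisomerase that untangles chromosomes before they separate, measured 7.19, 6.54, 6.77 and 6.72 at 2 months, against 8.28, 8.54, 7.92 and 8.60 at 1 month. The groups did not overlap, and the difference was −1.53 (SE 0.17, adjusted p = 0.000383). Prc1, which bundles microtubules of the central spindle, measured 9.01, 8.97, 8.76 and 8.70 at 2 months and 10.50, 10.60, 9.88 and 10.91 at 1 month, a difference of −1.61 (SE 0.19, adjusted p = 0.000465). Birc5, or survivin, and Pbk, a mitotic kinase, both fell by 1.67.

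Mcm6, a subunit of the helicase that opens DNA for replication, had the largest fall of these lists. It measured 7.36, 6.96, 7.44 and 7.22 at 2 months, against 9.34, 9.68, 9.10 and 9.26 at 1 month. The difference was −2.10 (SE 0.14, adjusted p = 1.8e-05). Uhrf1, which passes DNA methylation on to new strands, fell by 1.80, Mcm5 of the same helicase by 1.75 and thymidine kinase Tk1 by 1.69. Histone H2A genes, which are transcribed in S phase, made up 5 of the 12 largest falls among genes whose groups did not overlap (H2ac12, H2ac7, H2ac24, H2ac15 and H2ac22, −2.11 to −1.84). Their sequences are nearly identical, so that these probes may read the same transcripts. Replicate 3 of 1 month was the lowest of its group for Top2a, Prc1 and all 5 histone genes.

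The promoters of the 2 lists were searched for short motifs of cell cycle genes. RefSeq windows of 250 bases before to 50 after the gene start (GRCm38.p6) were matched for 17 of the 21 mitosis genes and 19 of the 23 replication genes that fell. The search covered both strands for TTTGAA, the cell cycle homology region (CHR) at which the DREAM complex acts, for the E2F forms TTTGGCGC and TTTCCCGC, and for CCAAT, the site of NF-Y. No motif contains another, but the ends of neighbouring matches can share a base. TTTGAA occurred in 14 of 17 mitosis genes (82.4%) and 3 of 19 replication genes (15.8%), beside 13.9% of the 8121 expressed genes with a window. An E2F form occurred in none of the 17 mitosis genes and in 6 of 19 replication genes (31.6%), beside 3.16% of expressed genes. CCAAT occurred in 13 of 17 (76.5%) and 8 of 19 (42.1%), beside 42.5%. Among all 27025 genes of the promoter table, 20.2% held TTTGAA, 1.8% an E2F form and 41.1% CCAAT. A match is a description of these letters, not of a bound factor. In all 14 mitosis genes with TTTGAA at least 1 copy lay within 50 bases of the start, a distance set after the positions were seen, and 3.56% of expressed genes had a copy there.

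**Figure D1:**
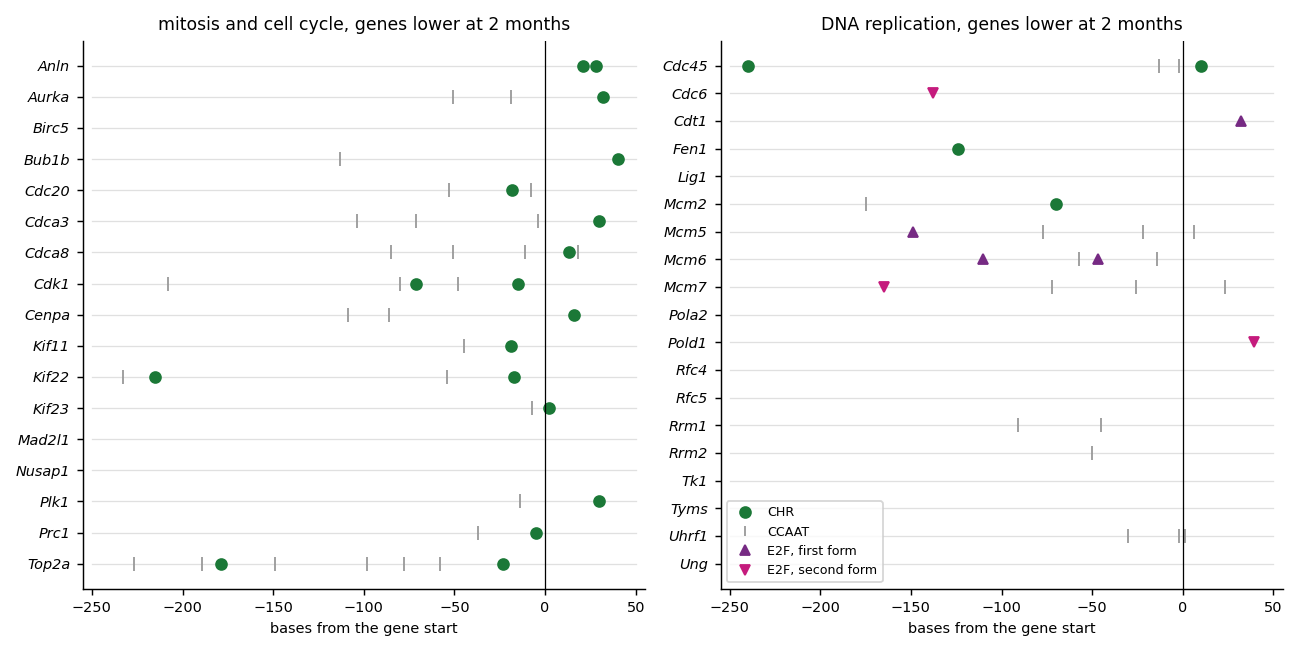
Motifs in the promoter windows of mitosis genes (left) and DNA replication genes (right) that were lower at 2 months in mutants; the horizontal axis gives bases from the gene start, each row a gene, and the symbols mark CHR, CCAAT and the E2F forms TTTGGCGC (first) and TTTCCCGC (second), on either strand. CHR symbols gather around the start in 14 of 17 genes on the left, and E2F symbols occur in 6 of 19 genes on the right and in none on the left.

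The following stretches show this contrast for genes named here, 5′ to 3′ along the gene's strand, with matches to the motifs in capitals on either strand. Those of the mitosis genes Top2a (chr11:99024190-99024294, minus strand), Cdk1 (chr10:69352913-69352997, minus), Prc1 (chr7:80294406-80294455, plus) and Kif11 (chr19:37376332-37376381, plus) hold CCAAT upstream of the copy of CHR nearest to the start:
Top2a: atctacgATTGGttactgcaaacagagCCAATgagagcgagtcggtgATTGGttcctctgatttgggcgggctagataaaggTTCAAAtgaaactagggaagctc
Cdk1: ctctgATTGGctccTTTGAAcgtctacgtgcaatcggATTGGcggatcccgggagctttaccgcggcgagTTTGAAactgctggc
Prc1: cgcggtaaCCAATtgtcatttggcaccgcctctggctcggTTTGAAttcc
Kif11: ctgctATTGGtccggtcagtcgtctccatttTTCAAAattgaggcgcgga

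Those of the replication genes Mcm6 (chr1:128359706-128359820, minus), Mcm5 (chr8:75109354-75109508, plus) and Cdc6 (chr11:98908006-98908055, plus) hold E2F forms and, within these stretches, no CHR:
Mcm6: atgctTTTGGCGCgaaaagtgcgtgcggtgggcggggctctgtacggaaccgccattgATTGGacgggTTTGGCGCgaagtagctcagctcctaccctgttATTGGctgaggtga
Mcm5: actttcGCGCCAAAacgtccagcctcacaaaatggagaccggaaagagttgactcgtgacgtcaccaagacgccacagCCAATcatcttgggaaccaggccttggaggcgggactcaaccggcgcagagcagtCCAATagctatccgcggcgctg
Cdc6: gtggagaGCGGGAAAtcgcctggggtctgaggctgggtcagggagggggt

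The age change of both lists was then set beside that of TgUmodwt females. Mitosis genes had a median difference of −1.11 in mutants and −1.28 in TgUmodwt females, where 19 of the 25 fell. Cdc20, the activator of the anaphase-promoting complex, was the only one with a difference between genotypes past the test, in the direction of a smaller fall in mutants (−1.19 against −2.07, difference 0.88, adjusted p = 0.0486). DNA replication genes had a median of −1.11 in mutants and −0.41 in TgUmodwt females, where 10 of the 25 fell. Over all 10008 genes the change was larger in mutants for 6045, and each of the 25 replication genes had the larger fall in mutants. The difference between genotypes passed the test for 6 of them, which are named after their values were seen. Cdc45 differed by −1.05 (adjusted p = 0.0157), Pole by −0.91 (adjusted p = 0.0438), Cdt1 by −0.90 (adjusted p = 0.0235), Cdc6 by −0.78 (adjusted p = 0.0187), Mcm4 by −0.76 (adjusted p = 0.0276) and Ung by −0.76 (adjusted p = 0.00334). They load or form the replication fork or, for Ung, remove uracil from DNA. Cdc45, Pole and Cdc6 were detected on no mutant array of 2 months, and on no array of TgUmodwt females at either age, so that a fall could not be measured there. Cdt1, Mcm4 and Ung were detected on all 16 arrays. The mean signal of the 25 replication genes lay at 7.70 to 7.78 at 2 months and 8.65 to 8.94 at 1 month in mutants, and at 7.47 to 7.61 at 2 months and 7.89 to 8.22 at 1 month in TgUmodwt females.

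**Figure D2:**
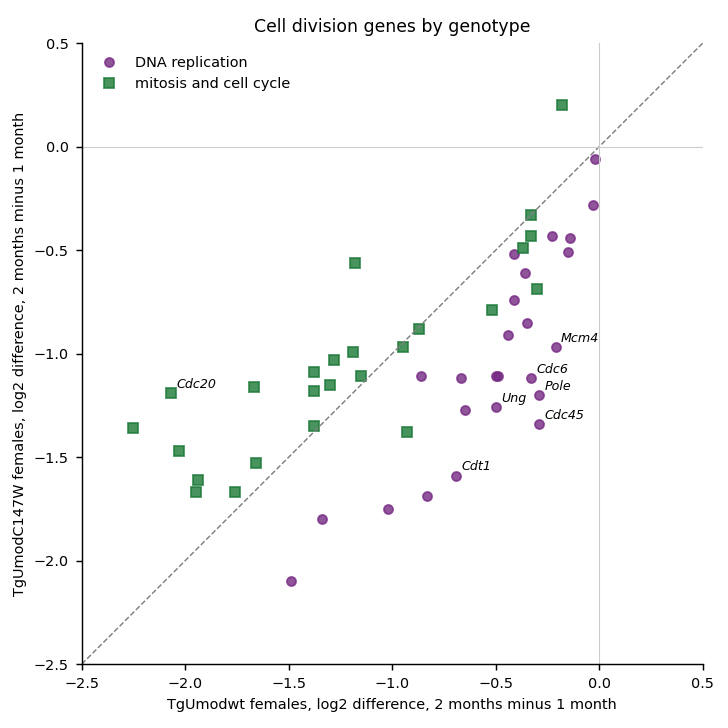
Age difference (2 months minus 1 month, log2) of 25 DNA replication genes (circles) and 25 mitosis genes (squares), in TgUmodC147W females on the vertical axis and TgUmodwt females on the horizontal axis, with the line of equal change dashed. All replication genes lie below the line, and the 7 genes named on the plot are those whose difference between genotypes passed the test.

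Genes of the extracellular matrix fell in both genotypes. Of 27 expressed genes of fibrillar matrix, 15 fell and none rose in mutants, with a median of −0.64, and in TgUmodwt females 14 fell with a median of −0.63. No gene of this list differed between genotypes in its age change past the test. Eln, the elastin of artery walls, measured 8.21, 8.13, 8.15 and 8.04 at 2 months, against 9.83, 10.25, 9.66 and 10.00 at 1 month, a difference of −1.80 (SE 0.12, adjusted p = 1.82e-05). Its change was −1.76 in TgUmodwt females. Col3a1 differed by −1.61, Col6a2 by −1.30 and Mfap5, a microfibril protein, by −1.26, all past the test. Without replicate 2 of 1 month, which had the highest mean signal over this list (10.23, against 9.79 to 10.04 for the others of its age), 11 genes of the list fell.

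Of 20 basement membrane genes, 11 fell in mutants and 9 in TgUmodwt females (9 fell and 1 rose in mutants without replicate 2 of 1 month). Col4a2 and Col4a1, which form the common type IV collagen network, differed by −1.06 (adjusted p = 0.000306) and −0.89 (adjusted p = 0.000185), the laminin chain Lamc1 by −0.88 and nidogen Nid1 by −0.84. Markers of smooth muscle and pericytes fell in 4 of 12 cases (Actg2, Acta2, Tagln and Notch3), and in 2 of 12 without replicate 2 of 1 month. Acta2, smooth muscle actin, measured 12.68, 12.60, 12.95 and 12.85 at 2 months, against 13.32, 13.94, 13.90 and 13.66 at 1 month. The gelatinase Mmp2 differed by −0.82 and the plasminogen activator Plau by 0.53, both past the test, among 19 matrix proteases and inhibitors of which 1 rose and 4 fell (3 and 3 without replicate 2 of 1 month).

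Of the 12 largest rises, 7 belonged to genes detected on at most 1 of the 4 mutant arrays of 1 month. Sec14l3, a lipid-binding protein of the SEC14 family, measured 10.53, 11.60, 10.94 and 10.49 at 2 months, against 4.79, 4.98, 4.79 and 6.84 at 1 month, when it was detected on 1 of 4 arrays. The difference was 5.54 (SE 0.43, adjusted p = 3.94e-05). In TgUmodwt females it averaged 11.08 ± 0.67 at 2 months and 10.50 ± 1.04 at 1 month (SD, n = 4 each), and the age changes of the genotypes differed by 4.97 (SE 0.71, adjusted p = 0.00293). Scgb1c1, a secretoglobin, rose by 4.40 and Ly6f, of the Ly6 family of membrane-anchored proteins, by 4.26, each detected on 1 of 4 arrays at 1 month, and neither passed the test in TgUmodwt females (0.45, adjusted p = 0.515, and −0.48, adjusted p = 0.41).

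Enzymes best known from the liver were also among the largest rises. Cyp2a4, a steroid hydroxylase, measured 11.47, 11.93, 11.51 and 11.50 at 2 months, against 7.06, 7.22, 6.55 and 9.59 at 1 month. Its near copy Cyp2a5, a coumarin hydroxylase, differed by 3.82, and the probes of this pair may read each other's transcripts. Ces1f, a carboxylesterase, measured 11.47, 11.47, 11.25 and 11.02 at 2 months, against 7.16, 6.82, 6.43 and 10.12 at 1 month. The difference was 3.67 (SE 0.65, adjusted p = 0.0048), and 4.50 without replicate 4 of 1 month. C8a, the alpha chain of complement component C8, was not detected on any mutant array of 1 month and at least 7.97-fold higher at 2 months, as counted against the lowest detected signal of each array (adjusted p = 5.06e-07), and Cyp4f14, which inactivates leukotriene B4, was at least 5.47-fold higher (adjusted p = 5.06e-07). Both also rose in TgUmodwt females, by 1.24 and 2.37.

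Replicate 4 of 1 month was the highest of its group for 11 of the 12 largest rises, the exception being Igf2. For Ces1f, Cyp2a4 and Slc22a26, an organic anion transporter, it stood apart from the other mice of its age, and for Slc22a26 its 8.58 came close to the lowest value of 2 months (8.63). Slc22a26 differed by 3.07 with this array (adjusted p = 0.0166) and by 3.93 without it (adjusted p = 1.15e-05). Hdc, the enzyme that makes histamine, measured 13.94, 14.51, 14.06 and 14.22 at 2 months and 10.78, 10.16, 9.27 and 11.26 at 1 month, and its change in TgUmodwt females was 2.20 (adjusted p = 0.108). Cyp2d9, of the Cyp2d family of drug oxidases, rose by 3.06 and was detected on 1 of 4 mutant arrays of 1 month.

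**Figure D3:**
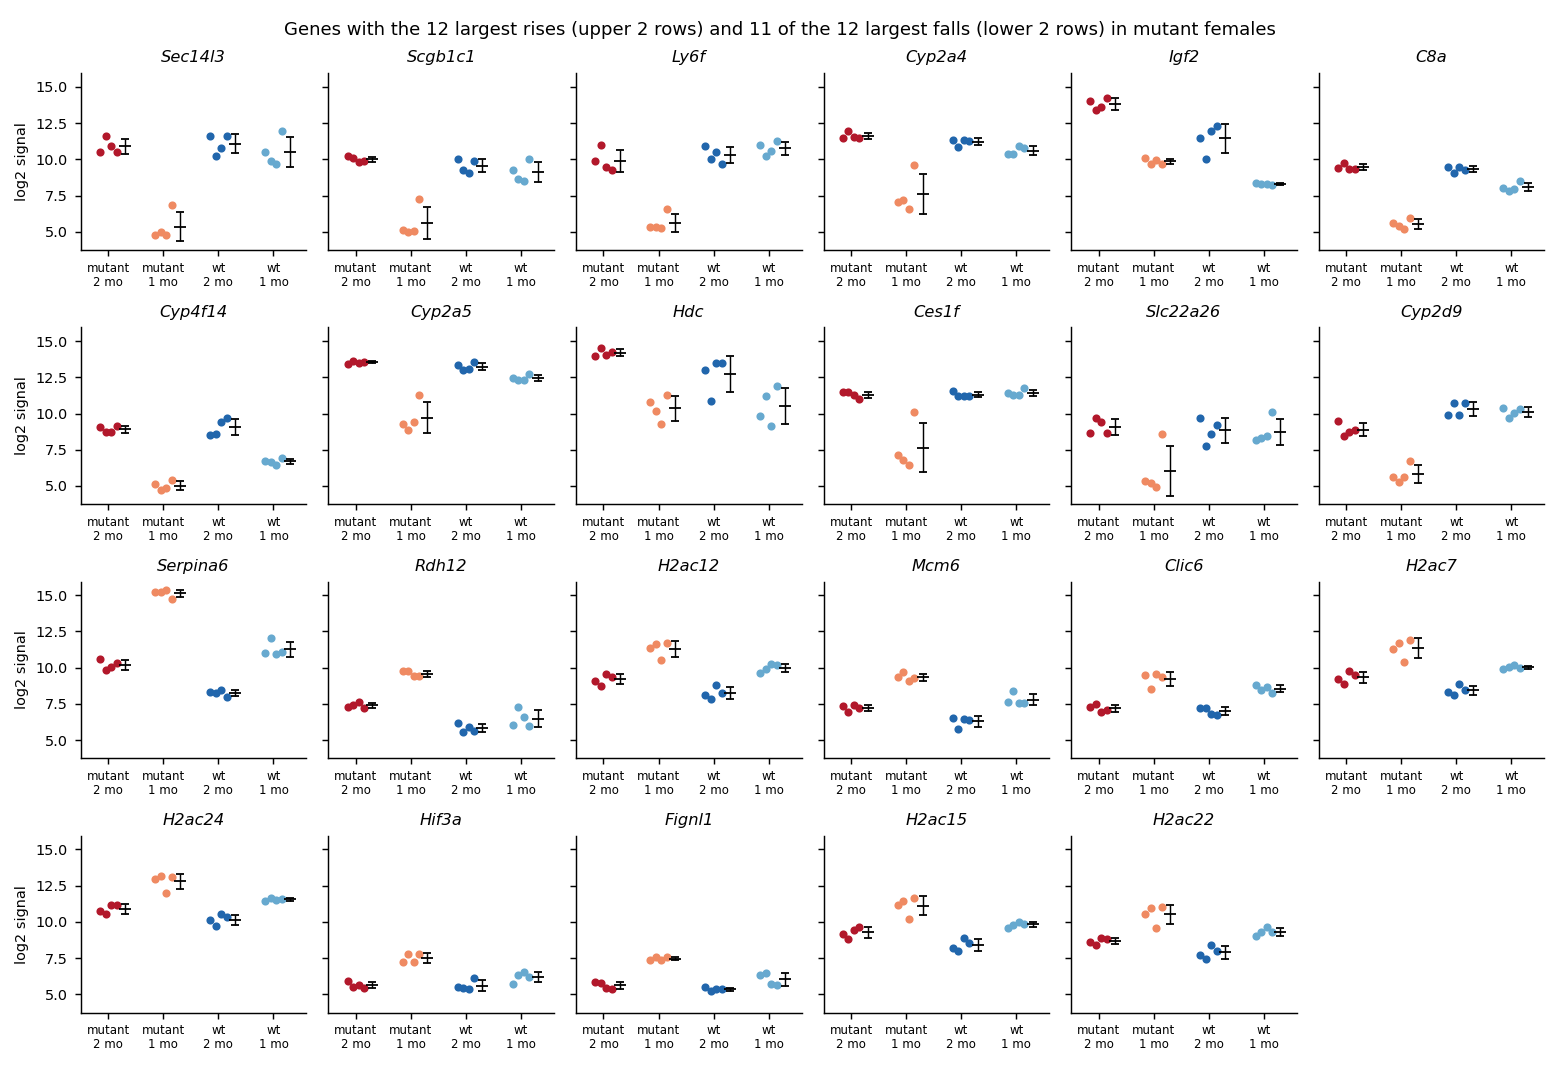
log2 signal of the 12 genes with the largest rises and 11 of the 12 with the largest falls between 1 and 2 months in TgUmodC147W females, among genes that passed the test and whose groups did not overlap; points are single arrays in the order of replicates 1 to 4, and the bar gives the mean and SD of 4 mice, for mutants of 2 months, mutants of 1 month, TgUmodwt of 2 months and TgUmodwt of 1 month. For Sec14l3, Scgb1c1, Ly6f, Ces1f and Cyp2d9 the mutants of 1 month stand apart below the other 3 groups.

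Igf2, the fetal insulin-like growth factor, rose with age in both genotypes. It measured 14.02, 13.39, 13.61 and 14.27 in mutants of 2 months, against 10.08, 9.71, 9.97 and 9.66 in mutants of 1 month, a difference of 3.97 (SE 0.18, adjusted p = 1.07e-06). In TgUmodwt females it measured 11.50, 10.05, 11.99 and 12.33 at 2 months and 8.35, 8.29, 8.28 and 8.22 at 1 month (difference 3.18, adjusted p = 0.0013), and the difference between the genotypes did not pass the test (0.78, adjusted p = 0.54). Only 1 named probe that passed the detection filter reads this gene. Other imprinted growth genes went the other way: Dlk1 differed by −0.90 and Ndn by −0.85, Mest was detected on no array of 2 months and was at least 1.18-fold higher at 1 month, and of 11 expressed genes of that list 1 rose and 4 fell. In the insulin-like growth factor system Igfals, which holds the factors in a circulating complex, rose by 1.96 and the growth hormone receptor Ghr by 1.13, while the binding protein Igfbp2 fell by 0.91. As 1 of 16 genes of that list, Igf2 also counted among its 3 rises, beside 2 falls (1 without replicate 2 of 1 month).

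Serpina6, or corticosteroid-binding globulin, had the largest fall of all genes. It measured 10.60, 9.82, 10.03 and 10.32 in mutants of 2 months, against 15.22, 15.21, 15.35 and 14.77 in mutants of 1 month, a difference of −4.94 (SE 0.18, adjusted p = 1.6e-07). In TgUmodwt females it averaged 8.25 ± 0.20 at 2 months and 11.26 ± 0.53 at 1 month (SD, n = 4 each), and the genotypes' age changes differed by −1.93 (adjusted p = 0.00593). Of the same family, Serpina10, the protein Z-dependent protease inhibitor, did not pass the test in mutants (−1.02, adjusted p = 0.0643) and yet differed between genotypes (−2.07, adjusted p = 0.0461), with a change of 1.06 in TgUmodwt females. That difference between genotypes passed in 12 of 28 fits, the main one and its alternatives. Rdh12, a retinol dehydrogenase, differed by −2.18 and Clic6, a chloride channel protein, by −2.04, past the test. Hif3a, of the hypoxia-inducible factor family, and Fignl1, an ATPase of DNA repair, were undetected at 2 months on every mutant array, at least 1.98-fold and 1.93-fold higher at 1 month.

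Genes that differed between genotypes in males were followed in the females. The male arrays enter no age comparison of the main fits, so these lists were chosen on other mice. All arrays were normalized together. Of 202 genes lowered more than 2-fold in TgUmodC147W males of 1 month relative to TgUmodwt males, 177 were expressed in the mutant females. Of the 177, 91 were higher and 4 lower at 2 months (71 and 4 without replicate 2 of 1 month), against the background of 6.18% higher and 6.98% lower. Their median difference was 0.69 in mutants and 0.13 in TgUmodwt females, and 35 of them had a positive and 2 a negative difference between genotypes, against 0.819% and 0.51% of all genes. The mean signal over the list was 9.12 to 9.27 in mutants of 2 months, against 8.12, 8.19, 8.29 and 8.84 in mutants of 1 month, where replicate 4 was the highest. In TgUmodwt females it was 9.37 to 9.52 at 2 months and 9.23 to 9.38 at 1 month. The median gap between mutant and TgUmodwt females was −0.25 at 2 months and −0.82 at 1 month, and it was narrower at 2 months for 144 of the 177 genes, beside 5827 of all 10008. The age change and this gap share the mutant arrays of 1 month. Of the 12 largest rises, 8 belong to this list.

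Of 199 genes raised more than 2-fold in TgUmodC147W males, 197 were expressed, and 11 were higher and 73 lower in mutant females at 2 months (12 and 60 without replicate 2 of 1 month). Their median difference was −0.40, against −0.09 in TgUmodwt females, and 1 had a positive and 13 a negative difference between genotypes. The mean signal was 8.65 to 8.81 in mutants of 2 months, against 8.98 to 9.35 in mutants of 1 month, and 8.08 to 8.23 and 8.23 to 8.28 in TgUmodwt females of 2 months and 1 month. The mutant mean thus lay above that of TgUmodwt females at both ages, by a median of 0.47 over genes at 2 months and 0.84 at 1 month. Serpina6, Rdh12 and Clic6 belong to this list, and so do Igf2 and Hdc, which rose.

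**Figure D4:**
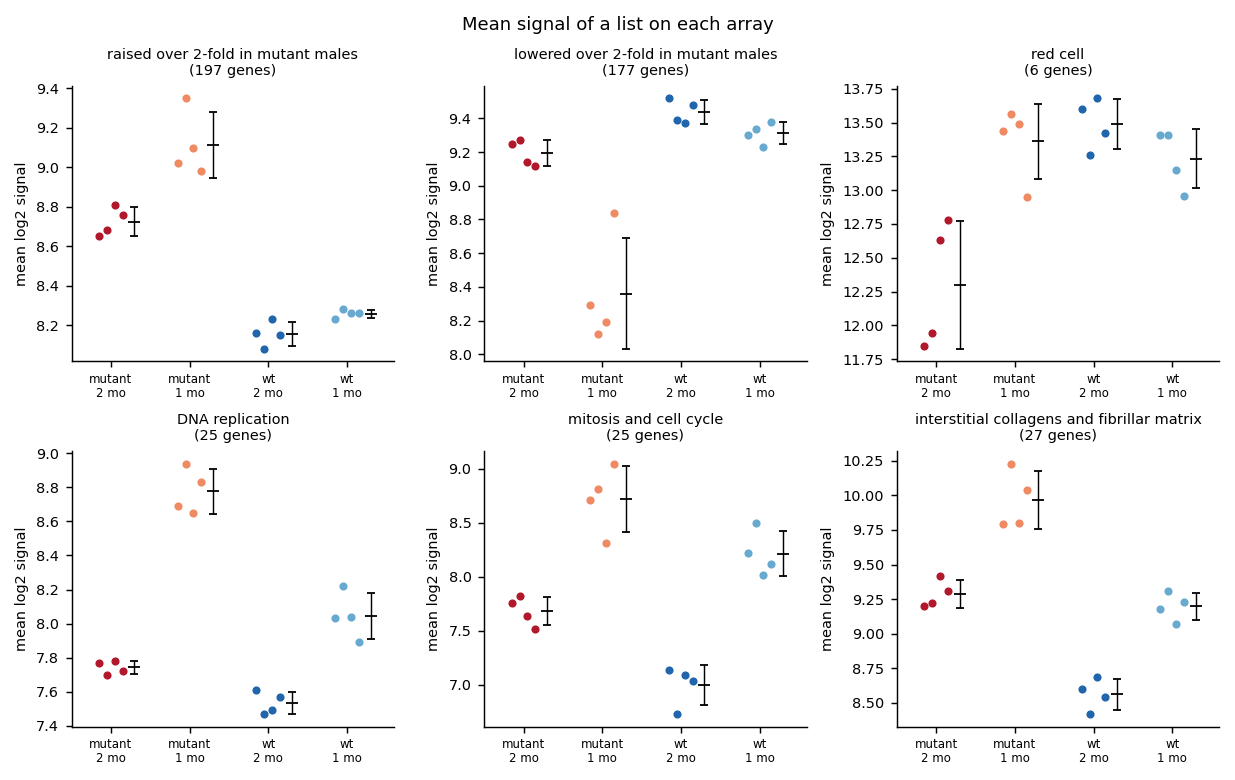
Mean log2 signal over the genes of 6 lists on each array, with points for replicates 1 to 4 and bars for the mean and SD of 4 mice, for mutants of 2 months, mutants of 1 month, TgUmodwt of 2 months and TgUmodwt of 1 month; the vertical axes differ and do not start at 0. Replicate 4 of the mutants of 1 month lies at 8.84 for the genes lowered in mutant males, above the other mutants of its age, and the red cell genes are lowest in mutants of 2 months.

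Genes of proximal tubule metabolism and transport were among those that rose. Of 51 expressed genes of amino acid metabolism, 19 rose and none fell, with a median of 0.33 in mutants and 0.13 in TgUmodwt females, where 4 rose. Gpt2, the mitochondrial alanine aminotransferase, measured 10.55, 10.87, 11.01 and 10.89 at 2 months, against 9.28, 9.39, 9.12 and 9.61 at 1 month, and its difference of 1.48 (adjusted p = 9.31e-05) exceeded that of TgUmodwt females by 0.91 (adjusted p = 0.0117). Kmo, of the kynurenine pathway, rose by 1.07, Ddc, which makes dopamine from L-DOPA, by 1.03 and Gnmt, glycine N-methyltransferase, by 1.02. Ddc also differed between genotypes, by 1.04 (adjusted p = 0.0204). Without replicate 2 of 1 month 14 of the 51 genes rose.

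Of 23 organic ion transporters 11 rose and none fell, with a median of 0.50 in mutants and 0.26 in TgUmodwt females, where 6 rose. Slc22a7, the organic anion transporter OAT2, measured 11.19, 10.85, 10.78 and 11.02 at 2 months, against 8.34, 8.00, 8.07 and 9.14 at 1 month. Its difference was 2.57 (SE 0.22, adjusted p = 7.45e-05), larger than that of TgUmodwt females by 2.02 (adjusted p = 0.00334). Slc22a4, a carnitine and ergothioneine transporter, rose by 1.15, the urate transporter Slc17a3 by 1.04 and the drug pump Abcb1b by 0.89. Slc17a3 reached 11.82 in replicate 4 of 1 month, within the range of 2 months (11.78 to 12.15), and did not pass without replicate 2 of 1 month (adjusted p = 0.0563). Without replicate 2, 7 of the 23 rose.

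Cytochrome P450 genes moved in both directions, with 10 of 22 higher and 2 lower in mutants (8 and 1 without replicate 2 of 1 month) and 4 positive and 2 negative differences between genotypes. The 4 positive ones were Cyp2a4, Cyp2a5, Cyp2d9 and Cyp4f14. Cyp27b1, which activates vitamin D, measured 5.46, 5.58, 5.39 and 5.31 in mutants of 2 months, detected on none of the arrays, against 8.23, 6.57, 6.81 and 7.42 in mutants of 1 month, detected on all. It was thus at least 1.67-fold higher at 1 month (adjusted p = 0.00282) and its fitted age change differed between genotypes by −1.94 (adjusted p = 0.0326), although it was detected on only 1 of the 8 arrays of TgUmodwt females. Of 13 genes of conjugation 3 rose and 1 fell (2 and 0 without replicate 2 of 1 month), led by Ugt3a1, an N-acetylglucosaminyltransferase for bile acids, by 2.04. Scd1, which makes oleate, rose by 2.74 (adjusted p = 0.000144) with 14.47, 14.68, 14.62 and 14.84 at 2 months against 11.97, 11.92, 11.09 and 12.68 at 1 month, and by 2.55 more than in TgUmodwt females (adjusted p = 0.00118). Glutathione and antioxidant genes rose in 7 of 34 cases, and in 5 without replicate 2 of 1 month. Of 40 peroxisomal genes 7 rose and 1 fell (6 and 1 without that array), with Ehhadh at 1.38 and Hao2 at 1.31. None of the 55 respiratory chain genes passed the test in limma (6 had an unadjusted p under 0.05), and their median was −0.06, while 4 fell with arrays scaled to a common median.

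**Figure D5:**
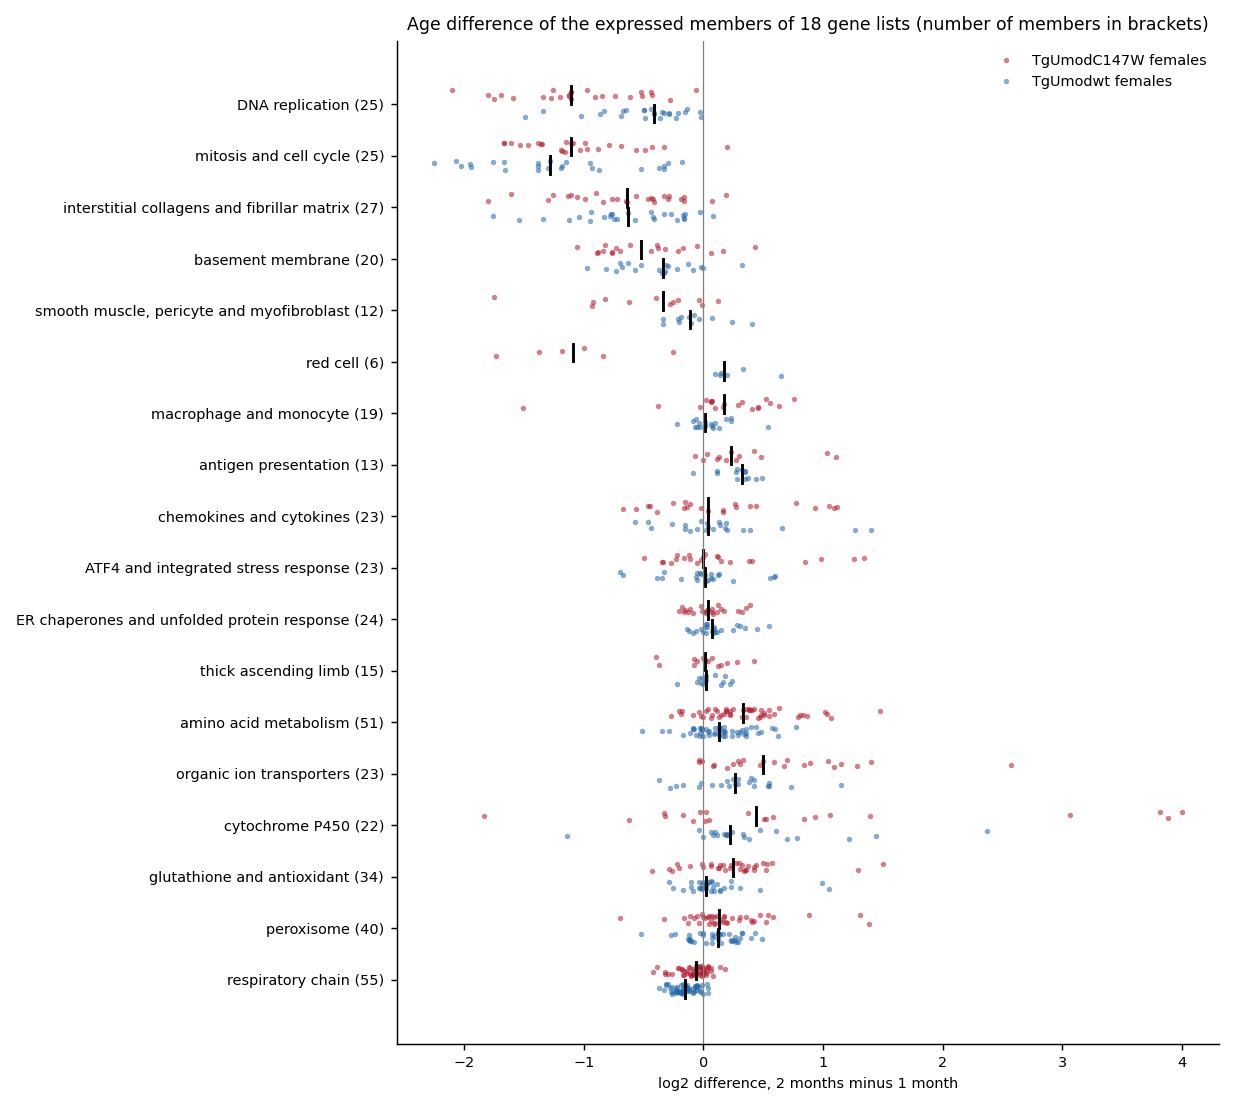
Age difference (2 months minus 1 month, log2) of each expressed gene of 18 lists, with TgUmodC147W females above and TgUmodwt females below in each row and the median as a black bar. The red cell genes have a median of −1.09 in mutants and 0.17 in TgUmodwt females, and the DNA replication genes one of −1.11 and −0.41.

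Red cell genes fell in mutants. Of 6 expressed genes 5 fell, with a median of −1.09 in mutants and 0.17 in TgUmodwt females. The 5 were Alas2, Hba-a1 and the beta globin genes Hbb-b2, Hbb-bs and Hbb-bt, which are near copies of each other. Of the 5, 3 passed the test of the difference between genotypes. The remaining gene, Slc4a1, was also counted as an intercalated cell marker and changed by −0.25 (adjusted p = 0.323). Alas2, the erythroid aminolevulinate synthase that starts heme production, measured 7.58, 7.47, 8.75 and 8.99 in mutants of 2 months, against 10.02, 10.38, 10.22 and 9.10 in mutants of 1 month. The difference was −1.73 (SE 0.37, adjusted p = 0.0142), and −2.38 relative to that of TgUmodwt females (adjusted p = 0.0289), which measured 10.67, 9.80, 10.68 and 10.00 at 2 months and 10.08, 10.06, 9.31 and 9.10 at 1 month. Hba-a1, alpha globin, measured 14.16, 14.31, 15.02 and 15.40 at 2 months, against 15.91, 15.99, 15.96 and 15.72 at 1 month, so close to the top of the scale that the difference of −1.18 may be compressed. Hbb-b2, a beta globin gene whose probe may read its near copies, differed by −1.37 (adjusted p = 0.00392). Replicates 1 and 2 of 2 months were lower than replicates 3 and 4 in each of Alas2, Hba-a1 and Hbb-b2. The blood left in a kidney was not measured, and without replicate 2 of 1 month 3 of the 6 genes fell. Over 28 fits, the main one and its alternatives, the difference between genotypes passed in 16 for Alas2, 15 for Hba-a1 and 27 for Hbb-b2.

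Most expressed immune genes did not pass the test, and those that did mostly rose, beside a background of 6.18% higher and 6.98% lower. Of 19 expressed macrophage and monocyte markers 3 rose and 1 fell in mutants (5 and 1 without replicate 2 of 1 month, which had the highest mean over the list, 9.15 against 8.32 to 8.59 for the others of its age). Csf1r, the receptor for colony-stimulating factor 1, rose by 0.76, Mpeg1 by 0.63 and Cx3cr1, the fractalkine receptor, by 0.56. Over the 8 fits that left out 1 array, Csf1r passed in 8, Cx3cr1 in 5 and Mpeg1 in 1. In TgUmodwt females Csf1r changed by −0.04, Mpeg1 by 0.54 and Cx3cr1 by 0.01. None of these differed between genotypes past the test. Cd163, the scavenger receptor for haemoglobin, measured 5.05, 5.47, 5.06 and 4.98 at 2 months, detected on no array, against 6.28, 7.59, 6.08 and 6.67 at 1 month, detected on 2. It was thus at least 1.10-fold higher at 1 month (adjusted p = 0.00582), and its fitted age change differed between genotypes by −1.45 (adjusted p = 0.0376), although it was detected on no array of TgUmodwt females. Among 23 chemokines and cytokines 5 rose (3 without replicate 2 of 1 month), with Cxcl9 at least 1.30-fold and Cxcl10 at least 1.45-fold higher at 2 months, both T-cell chemokines induced by interferon gamma. In TgUmodwt females these rose as well, by 1.40 (adjusted p = 0.0116) and 1.27 (adjusted p = 0.000189). Antigen presentation genes rose in 4 of 13 cases (3 without that array), with Cd74, the invariant chain, at 1.11 and H2-Ab1, of class II, at 1.03. The list median was 0.23 in mutants and 0.32 in TgUmodwt females, where Cd74 changed by 0.35 and H2-Ab1 by 0.49. Neither gene differed between genotypes past the test (adjusted p = 0.0571 and 0.384). Of the markers of B cells, of neutrophils and of T and NK cells, 2, 2 and 3 genes were expressed, of which 1 rose, Cd8b1, by 0.41. Its signal averaged 13.47 at 2 months and 13.06 at 1 month, and whether this bright signal comes from T cells was not tested. In TgUmodwt females Cd8b1 changed by 0.34 (adjusted p = 0.0992).

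Stress genes split. Of 24 expressed ER chaperones and genes of the unfolded protein response 2 rose, Edem1, which sends misfolded proteins to degradation, by 0.39 (adjusted p = 0.0387) and the ER oxidase Ero1b by 0.32 (adjusted p = 0.0366). None of the 24 passed the test without replicate 2 of 1 month, and the median was 0.04. Of 23 genes of the ATF4 arm of the stress response 4 rose and 1, Phgdh, fell (5 and 1 without that array). The median of this list was 0.00 in mutants and 0.01 in TgUmodwt females, and 11 of the 23 lay below 0 in mutants. Trib3, an inhibitor of AKT, measured 7.24, 7.69, 7.57 and 7.77 at 2 months, against 6.06, 6.51, 6.47 and 6.21 at 1 month. Its difference was 1.26 (adjusted p = 0.000354), and it was detected on no array of TgUmodwt females, where an age change could not be measured. Chac1, which breaks down glutathione, rose by 1.34, asparagine synthetase Asns by 0.98 and the transcription factor Atf5 by 0.85. In TgUmodwt females Chac1 changed by 0.56, Asns by 0.60 and Atf5 by 0.01. None of these differed between genotypes past the test (adjusted p = 0.172, 0.626 and 0.0653). Tubular injury genes rose in 1 of 20 cases and fell in 2 (1 and 1 without that array), Krt19 being at least 1.56-fold higher at 1 month and Cryab rising by 0.44 (adjusted p = 0.0588 without it).

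Markers of other kidney segments passed the test in few cases. Of 11 collecting duct principal cell genes 1 rose, the water channel Aqp4 by 0.92, and 2 fell, Aqp2 by 0.79 and the sodium channel subunit Scnn1a by 0.43, of which neither passed the test without replicate 2 of 1 month (adjusted p = 0.0809 and 0.114). Among 19 proximal tubule markers 4 rose and none fell, but 3 rose and 1 fell without replicate 2 of 1 month, and 1 rose and 1 fell with arrays scaled to a common median. The urate transporter Slc22a12 rose by 0.67, the sulfate transporter Slc13a1 by 0.60 and megalin, Lrp2, by 0.40. Lrp2 did not pass without replicate 2 of 1 month (adjusted p = 0.0541). Over the 8 fits that left out 1 array, Slc22a12 passed in 8, Lrp2 in 6 and Slc13a1 in 2. None of 11 markers of the distal convoluted tubule and none of 11 of intercalated cells passed the test in limma (3 and 0 had an unadjusted p under 0.05), and 1 of 19 genes of nephron progenitors and kidney development fell, Pax8, by 0.41, and did not pass without that array (adjusted p = 0.112). Tdrd5, counted with 7 podocyte markers, rose by 0.65, and 2 of 16 endothelial genes fell, Sox18 by 0.73 and Sox17 by 0.39, the second of which was lost without that array (adjusted p = 0.105). The clock gene Per3 changed by −0.38 in mutants, a call that did not hold without replicate 2 of 1 month (adjusted p = 0.0649) or as the mean of its probes (−0.02, adjusted p = 0.91), and rose by 0.94 in TgUmodwt females. The difference between genotypes was −1.31 (adjusted p = 0.00899), and the time of day of tissue collection is not given in the sources used here.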

How the data were processed

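Total RNA of 1 whole kidney sample per mouse was labelled and hybridised to 1 array. The authors deposited probe intensities as summarised by GenomeStudio, neither background subtracted nor normalized, and the detection p-value of each probe against the negative controls of its array. A second deposited table, of intensities normalized by cubic spline, was used as an alternative. No depth exists for arrays, and the number of mice limits precision. The intensities were background corrected with neqc (limma 3.58.1, R 4.3.3) using the detection p-values and an offset of 16. Quantile normalization covered all 24 arrays, and values are log2. Probes with a detection p under 0.01 on at least 1 array of a comparison were kept. Of 45281 probes, 30.2% have different IDs in the 2 tables, and a probe was named only where both IDs give 1 same gene (34043 probes, 18747 genes, symbols updated through the RefSeq table of GRCm38.p6).

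The groups were compared with limma (lmFit and eBayes, p-values adjusted by Benjamini-Hochberg over all kept probes). A gene counted as changed where any of its probes passed at 0.05, and lists were counted by the brightest kept probe. Genes were named by a rule: Umod, the 12 largest rises and falls past the test without overlap, up to 4 members per list, and the 5 largest differences between genotypes in each direction. Some genes that the rule names are not reported here. The other genes named were chosen after their values were seen. The members and lists were chosen with earlier results of these data known. A bound given as "at least" sets the bright group's mean against the lowest detected signal of each array, or the probe's own where higher. The fits were tested on simulated data. Alternatives covered the background correction, the normalization, the offset, the filter on dim probes, the arrays in the fit, the variance prior, the reading of several probes, probe names, the replicate number as a block, and leaving out each array. Replicates are separate mice.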

Additional observations from a re-analysis of the deposited data

Results flagged for a closer look

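The age change of mutants differed from that of TgUmodwt females, by a test of the difference itself, for the following genes named above. Of the rises, the difference was 4.97 for Sec14l3, 4.73 for Ly6f, 3.94 for Scgb1c1, 3.80 for Ces1f, 3.39 for Cyp2a4, 3.04 for Cyp2a5, 2.86 for Cyp2d9, 2.68 for C8a and 1.51 for Cyp4f14. It was 2.55 for Scd1, 2.02 for Slc22a7, 1.42 for Ugt3a1, 1.20 for Trib3, 1.04 for Ddc, 0.91 for Gpt2, 0.81 for Cryab, 0.74 for Slc22a4 and 0.70 for Tdrd5. It was −2.07 for Serpina10, −1.94 for Cyp27b1, −1.93 for Serpina6, −1.54 for Rdh12, −1.45 for Cd163, −1.31 for Per3, −1.29 for Hif3a and −1.16 for Fignl1. Cd163, Hif3a, Fignl1 and, below, Cdc45, Pole and Cdc6 were detected on no array of TgUmodwt females and on none of mutants of 2 months, Cyp27b1 on 1 and 0 of them, and Trib3 on no array of TgUmodwt females, and Rdh12 on 1 of them, while C8a and Cyp4f14 were detected on no mutant array of 1 month. Sec14l3, Ly6f, Scgb1c1 and Cyp2d9 were detected on 1 of 4 mutant arrays of 1 month. All these fitted differences rest in part on signals not above background, and their size was not measured. Among red cell genes it was −2.38 for Alas2, −1.70 for Hbb-b2 and −1.31 for Hba-a1. Among cell division genes it was 0.88 for Cdc20, −1.05 for Cdc45, −0.91 for Pole, −0.90 for Cdt1, −0.78 for Cdc6, and −0.76 for both Mcm4 and Ung. Over 28 fits, the main one included, the test passed in 12 for Serpina10, 15 for Hba-a1, 16 for Alas2 and 17 for Cyp4f14. It passed in 18 for Cyp27b1, in 19 for Ugt3a1 and for Hif3a, and in 15 of 27 for Cd163. For Sec14l3, Ly6f, Scgb1c1 and Scd1 it passed in all 28. Such counts were not made for Cdc20, Cdc45, Pole, Cdt1, Cdc6, Mcm4 and Ung.

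The mutants of both ages were screened for each expressed gene named in the text, so part of the following list can be chance. Single arrays stood far from the others of their group by Dixon's test, which chance alone gives in about 1 of 20 groups. At 2 months these were replicate 2 for Xist (12.72, highest), Cyp2a4 (11.93, highest), Mpeg1 (9.17, highest), Edem1 (7.17, lowest) and Cd163 (5.47, highest, not detected), and replicate 3 for Mfap5 (7.54, highest). At 1 month they were replicate 2 for Xist (4.85, lowest) and replicate 4 for Slc22a26 (8.58), Scgb1c1 (7.26), Sec14l3 (6.84) and Ly6f (6.57), each the highest.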

How the results depend on the processing

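None of the 149 genes named by the rule that passed the test changed direction under any alternative, while Umod, which did not pass, ranged over −0.39 to 0.02, and 99 of the 157 stayed on the same side of the threshold in all of them. One fit over all 24 arrays gave 1179 higher and 1282 lower genes (main 772 and 820) and 155 positive and 116 negative differences between genotypes (main 95 and 70). With no filter on dim probes these differences numbered 42 and 26. Of genes past 2-fold (main 130 higher and 142 lower), the authors' normalized table gave 73 and 50, no background correction 74 and 50, and an offset of 50 gave 94 lower. Leaving out 1 array gave 493 to 773 higher and 517 to 769 lower genes, 106 to 166 and 125 to 158 past 2-fold, and 46 to 227 positive and 25 to 132 negative differences between genotypes, the highest without replicate 4 and 59 and 32 without replicate 2 of the mutants of 1 month. The causes were not tested. Names from a single table, chosen after seeing the data, gave 788 to 793 higher and 837 to 840 lower genes.

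Replicate numbers did not pair the mice (correlations of −0.09 to −0.07), and the replicate number as a block gave 508 higher and 542 lower genes. A block for the BeadChip was not run, since the columns name none. Probes near background or near the top of the scale give compressed differences.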
